A study of Eriocheir sinensis with 9 samples.

Results

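In eyestalks of Eriocheir sinensis, the Chinese mitten crab, 200 isoforms were followed whose transcript level was higher at 27 °C than at both 22 and 32 °C. They were chosen from the values themselves, out of 267789 isoforms in the table and 101114 that reached 1 FPKM in 3 or more of 9 libraries. FPKM counts the fragments of a transcript scaled to the transcript's length and to the mapped fragments of the library. On the log2(FPKM + 1) scale, the mean had to rise by at least 1 from 22 to 27 °C and fall by at least 1 from 27 to 32 °C. Every 27 °C value also had to lie above all 6 values of the other temperatures. These conditions were met by 487 isoforms, 0.482% of those tested, and the 200 with the largest sum of rise and fall were kept. All levels and differences at 27 °C below therefore describe the choice and are no test of it.

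The libraries are 3 each from 22, 27 and 32 °C. All crabs are labelled wild type and untreated, were between molts, had been held at 25 °C beforehand, and were assigned to 1 of 6 temperatures with 16 crabs per replicate. The length of exposure, the age and sex of the crabs, and the number of crabs behind a library are not stated in the labels, so a p-value reflects library-to-library spread only, part of which may be technical. The design text of the series speaks of muscle where the sample labels say eyestalk, and the identifiers are numbered isoforms without gene names. The tissue label therefore could not be checked against marker genes, and no member could be given a function.

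The eyestalk of crustaceans carries the eye and its ganglia, together with the X-organ and sinus gland complex, which releases peptide hormones that act on molting, blood sugar, reproduction and pigment. Crabs are ectotherms, so their tissues follow the temperature of the water. Isoforms are alternative transcripts of a gene, and an isoform can change while the gene's total output does not, through the choice of start site, splice sites or transcript end. In RNA from a whole organ, fewer cells of a type and less RNA per cell cannot be told apart.

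Most of the members were low or undetected outside 27 °C. The median of their group means was 8.72 FPKM at 27 °C, against 0.887 FPKM at the lower and 1.47 FPKM at the higher temperature. Over all isoforms tested these medians were 2.46 FPKM at 27 °C, 2.28 FPKM at the lower and 2.55 FPKM at the higher temperature. The mean level at 27 °C ran from 2.44 to 5493 FPKM, with 34 members under 5 FPKM, 81 from 5 to 10, 72 from 10 to 50, 3 from 50 to 100 and 10 at 100 FPKM or more. The rise from 22 to 27 °C had a median of 2.42 and the step from 27 to 32 °C a median of -2.15 on the log2(FPKM + 1) scale. The last isoform kept and the first left out both had a summed rise and fall of 3.48. The last isoform kept stood at 3.87 to 8.9 FPKM at 22 °C, 16.4 to 24.2 FPKM at 27 °C and 1.59 to 14.4 FPKM at 32 °C. The first left out stood at 1.64 to 7.79, 10.3 to 14.8 and 1.67 to 3.61 FPKM. The 287 isoforms that met the conditions without being kept had a median sum of 2.68, against 4.42 for the members.

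**Figure D1:**
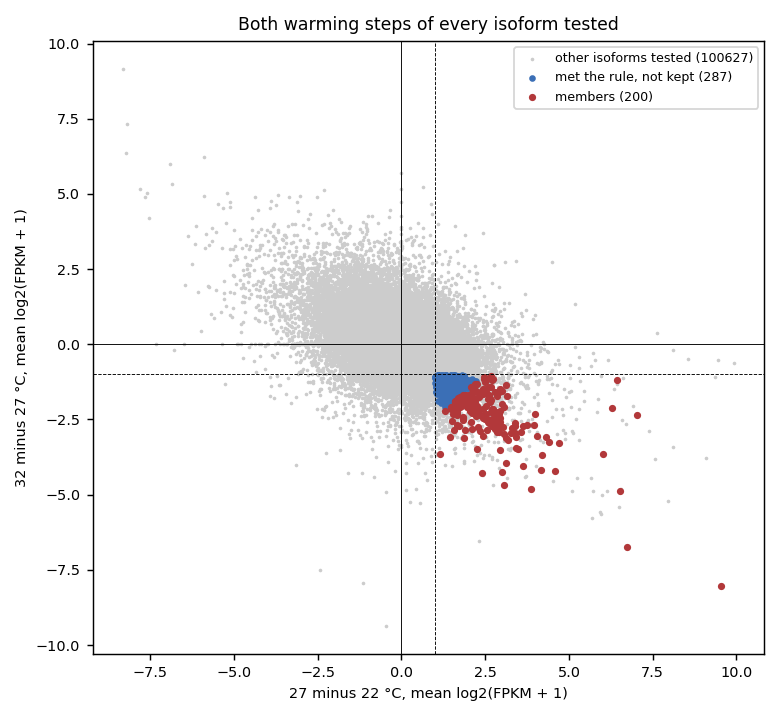
Mean change of log2(FPKM + 1) from 22 to 27 °C (horizontal axis) and from 27 to 32 °C (vertical axis) for each isoform tested. Red points are the 200 members, blue points the 287 that met the conditions but were not kept, and dashed lines mark the required steps of 1. The grey points below and to the right of the dashed lines, among them some with steps as large as those of the members, had a 27 °C value that did not clear all 6 others.

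Size and separation each removed most candidates. A rise and a fall of at least 1 were seen in 1907 isoforms, and in 1420 of them the 27 °C values overlapped those of another temperature. Conversely, 2831 isoforms had all 27 °C values above the other 6, whatever the size of the steps.

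By their level at the other temperatures the members fell into 4 classes. In 140 of them the isoform was above 0 in some library at 22 °C and in some library at 32 °C. In this class the median of the group means was 10.2 FPKM at the peak, against 1.46 FPKM at 22 °C and 2.11 FPKM at 32 °C. A further 26 members were listed at 0 in all 3 libraries at 22 °C but not at 32 °C, with a median of 1.08 FPKM at 32 °C and of 6.22 FPKM at the peak. The reverse, 0 throughout 32 °C but not 22 °C, was seen in 8 members. The last class, 26 members, was listed at 0 in all 6 libraries of both other temperatures.

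**Figure D2:**
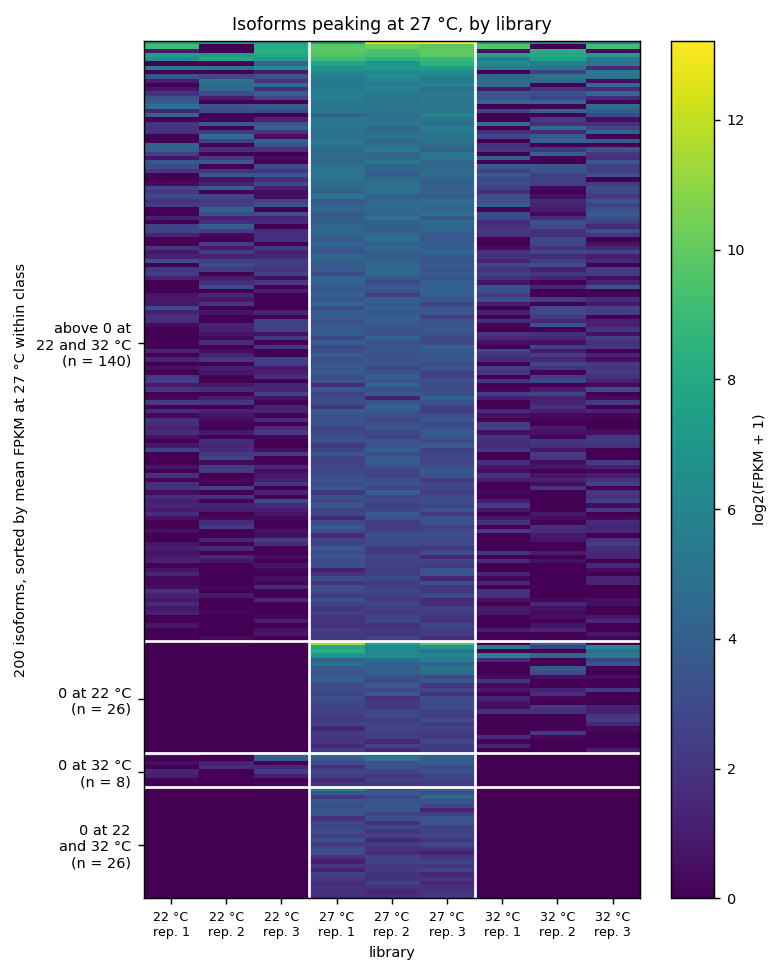
Level of each of the 200 members (rows) in each of the 9 libraries (columns), as log2(FPKM + 1), grouped by class and sorted by mean level at 27 °C. The 27 °C columns are filled in every row, while the 22 and 32 °C columns hold a mixture of dark cells at 0 and brighter cells, often within a row.

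The 26 members seen at 27 °C alone were all of modest level. Their mean at 27 °C ran from 2.44 to 19.9 FPKM with a median of 4.59 FPKM, and single 27 °C values from 1.05 to 35.2 FPKM. The most abundant of them stood at 35.25, 8.44 and 16.03 FPKM in the 27 °C libraries. Another stood at 9.63, 10.65 and 9.18 FPKM, and the steadiest at 2.6, 2.65 and 2.53 FPKM. A 0 in a table without counts may reflect a failed estimate rather than absence, and read totals are unknown. No fold change is therefore given for this class. An isoform of this class was tested only if each 27 °C library reached 1 FPKM. The lower end of its 27 °C values was thus fixed by that minimum.

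Members detected in all 9 libraries numbered 41. Their median group mean was 17.3 FPKM at 27 °C, against 3.04 FPKM on the cooler and 4.04 FPKM on the warmer side. The lowest 27 °C value exceeded the highest of the other 6 by a median of 1.52-fold, with a range of 1.07 to 11.4-fold. The widest gap belonged to an isoform at 0.21, 0.71 and 0.1 FPKM in the 22 °C libraries, 9.44, 8.08 and 8.23 FPKM in the 27 °C libraries, and 0.52, 0.2 and 0.13 FPKM in the 32 °C libraries. All 3 of its 27 °C libraries lay close together and far above the rest. A second stood at 1.3, 1.28 and 1.73 FPKM in the 22 °C libraries, 21.24, 13.18 and 11.91 FPKM in the 27 °C libraries, and 2.48, 1.95 and 1.02 FPKM in the 32 °C libraries.

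The 10 most abundant members differed widely in how far 27 °C stood apart. Isoform_30600 had the highest mean at 27 °C. It stood at 186.42, 146.2 and 163.82 FPKM in the 22 °C libraries, at 219.24, 6728.57 and 9530.74 FPKM in the 27 °C libraries, and at 129.24, 70.81 and 67.91 FPKM in the 32 °C libraries. Replicates 2 and 3 at 27 °C were far above every other library, whereas replicate 1 at 27 °C lay just above the 22 °C values. Its spread within 27 °C, 43.5-fold between the lowest and the highest library, was the widest of all members.

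Isoform_45974 came second in level and first in the sum of rise and fall, 17.6 on the log2(FPKM + 1) scale. It was at 0 in every 22 °C library, stood at 2725.54, 215.54 and 703.18 FPKM in the 27 °C libraries, and at 0, 21.34 and 0 FPKM in the 32 °C libraries. The groups were well apart, with a 12.6-fold spread within 27 °C.

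Isoform_84599 had the second-largest sum of rise and fall, 13.5. Its values were 0.84, 0 and 334.78 FPKM in the 22 °C libraries, 959.5, 747.42 and 1002.63 FPKM in the 27 °C libraries, and 0.56, 300.06 and 0.26 FPKM in the 32 °C libraries. It was uniform at 27 °C, and at each other temperature a single library reached 300 FPKM or more while its companions were below 1 FPKM. Isoform_35611, next by that sum, was at 0 throughout 22 °C. It stood at 303.27, 70.62 and 33.85 FPKM in the 27 °C libraries and at 0, 0 and 29.39 FPKM in the 32 °C libraries, so that its highest 32 °C library came close to its lowest 27 °C library.

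The third most abundant member showed the same alternation at a high level. It stood at 557.89, 0 and 281.56 FPKM in the 22 °C libraries, 919.51, 1157.11 and 925.57 FPKM in the 27 °C libraries, and 791.48, 0 and 570.46 FPKM in the 32 °C libraries. Its highest 32 °C library lay 1.16-fold below its lowest 27 °C library. The fifth most abundant member was present everywhere. Its values were 164.65, 142.29 and 247.69 FPKM in the 22 °C libraries, 777.87, 604.99 and 994.32 FPKM in the 27 °C libraries, and 202.32, 236.61 and 166.5 FPKM in the 32 °C libraries. The group means were 185 ± 55.5, 792 ± 195 and 202 ± 35.1 FPKM (SD, n = 3 each), and its lowest 27 °C library was 2.44-fold above the highest of the other 6. The sixth most abundant member stood at 93.39, 231.58 and 138.8 FPKM in the 22 °C libraries, 547.22, 369.97 and 483.95 FPKM in the 27 °C libraries, and 45.28, 199.15 and 38.06 FPKM in the 32 °C libraries. Here too no library was at 0, and replicate 2 was the highest at 22 and at 32 °C.

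**Figure D3:**
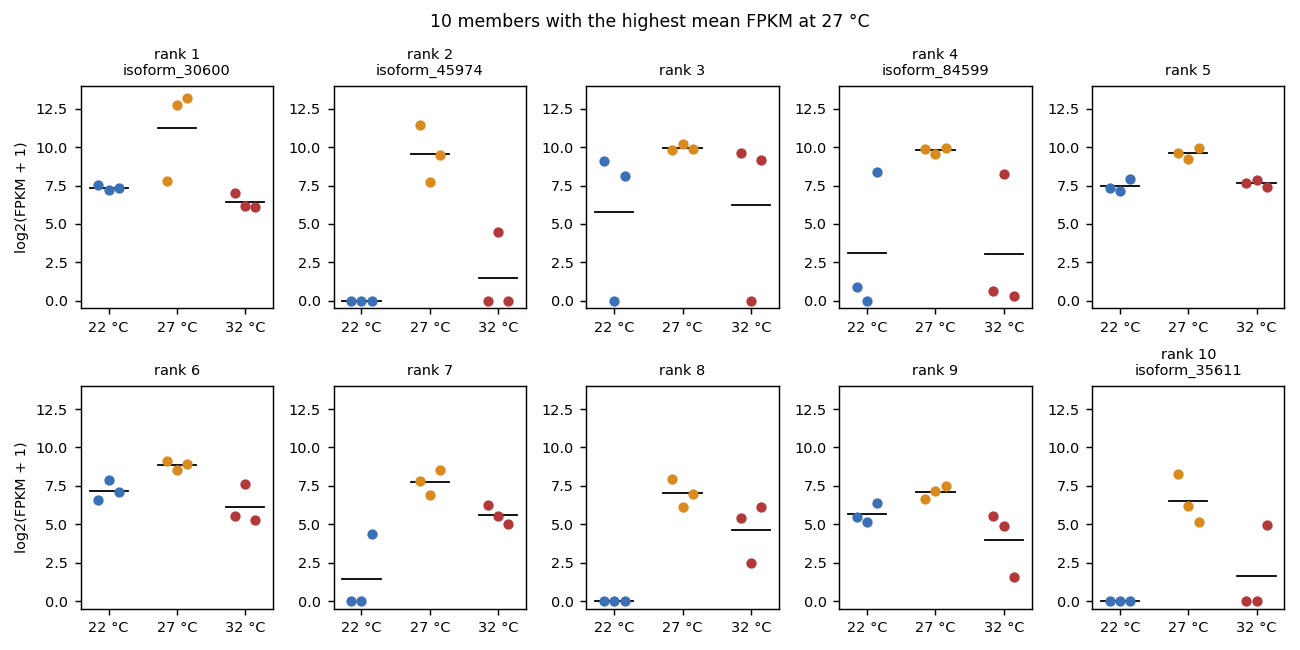
Level of the 10 members with the highest mean FPKM at 27 °C, as log2(FPKM + 1), with 1 point per library in replicate order and a bar at the mean of each group. Ranks 1, 5, 6 and 9 are above 0 in every library, whereas ranks 2, 3, 4, 7, 8 and 10 have libraries at or near 0 at 22 °C, 32 °C or both.

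Alternation between 0 and a clear level within a temperature was frequent in the members. At 22 °C, 43 members reached 5 FPKM in some library, and 21 of these (48.8%) were at 0 in another 22 °C library. At 32 °C the same held for 29 of 65 members (44.6%). Among all isoforms tested that reached 5 FPKM, the shares were 12.3% at 22 °C and 13.7% at 32 °C. The members were chosen partly for low values at these temperatures, so the difference is a description. The conditions themselves left no member at 0 in the 27 °C libraries. In each other library between 73 and 104 members were at 0. That is 36.5 to 52.0% of the members, against 6.51 to 8.98% of all isoforms tested, and is likewise a description.

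The gap that set the members apart was usually narrow. In the 174 members with a value above 0 at 22 or 32 °C, the lowest 27 °C value was a median of 1.46-fold above the highest other value. The ratio was under 1.2 in 49 of them, at least 2 in 43 and at least 5 in 12. The highest of the 6 other values came from a 32 °C library in 118 of the 174 (67.8%) and from a 22 °C library in 56. Over all isoforms tested, a 32 °C library held the highest of the 6 in 59.3%. Replicates 1, 2 and 3 at 32 °C held it in 26.4, 19.5 and 21.8% of these members, against 18.4, 24.3 and 16.5% of all isoforms tested. Across the tested isoforms, themselves not independent, the correlation of replicate 1 at 32 °C was 0.754 to 0.761 with 27 °C libraries but 0.731 and 0.738 with its own group. Without that library, 746 isoforms met the conditions instead of 487, against 602 and 621 without replicate 2 or 3 at 32 °C. The count rose whichever library was left out, to between 532 and 963.

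Within 27 °C the median spread of the members was near that of all isoforms tested, and wide spreads were fewer. The highest 27 °C library exceeded the lowest by a median of 2.01-fold, against 1.85-fold over the 84568 tested isoforms that were above 0 in all 3 libraries. The spread was under 2-fold in 99 members (49.5%, against 55.3%) and over 5-fold in 12 (6%, against 12.2%). The conditions on every 27 °C value left out isoforms with a low 27 °C library, so these shares are a description. No 27 °C library dominated, since replicates 1, 2 and 3 held the highest value in 68, 69 and 63 members.

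The members made up a small part of the eyestalk RNA. Their share of summed FPKM was 0.664% ± 0.177 in the 27 °C libraries, against 0.0614% ± 0.0191 in those from 22 °C and 0.0847% ± 0.00458 in those from 32 °C (SD, n = 3 each). Isoform_30600 decided much of the 27 °C share and of its spread. Without it the shares were 0.385% ± 0.0839 at 27 °C, against 0.0537% ± 0.0184 and 0.0800% ± 0.0034. Without the 5 most abundant members they were 0.185% ± 0.0147, against 0.0263% ± 0.00572 and 0.0396% ± 0.00461.

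The comparison of 32 with 22 °C asks whether the members stood at a similar level in these separate groups. The conditions did not fix its direction. On the log2(FPKM + 1) scale the difference had a median of 0.15 over all 200 members and 0.10 over all isoforms tested. The 26 members at 0 in all 6 libraries have no such difference, and over the other 174 the median was 0.22. It was within 0.5 of zero in 77 of the 174 (44.3%), against 61.0% of the tested isoforms detected at 22 or 32 °C. The 32 °C mean lay at least 1 above the 22 °C mean in 32 of them (18.4%, against 7.86%) and at least 1 below it in 11 (6.32%, against 6.62%). The members were chosen with these values in use, so the shares are a description. After median-of-ratios scaling between libraries, which moved the median over all isoforms from 0.10 to -0.02, the median of the 199 members still tested was 0.07. Rescaling to TPM moved the median over all isoforms to 0.21, with the 182 members still tested at 0.17.

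Higher levels at 32 than at 22 °C were called for 3 members by limma's moderated test on log2(FPKM + 1), at a Benjamini-Hochberg adjusted p of 0.05 over all isoforms tested. The same test called 0.908% of all isoforms higher at 32 °C and 0.789% lower. It called 0 members lower. At an unadjusted p of 0.05, 18 members were higher (9.0%, against 10.5% of all isoforms) and 4 lower (2.0%, against 6.0%). These shares are of all 200 members, and the 26 at 0 in all 6 libraries could not pass, which lowers them. The most abundant of the 3, eighth by level, was listed at 0 in all 22 °C libraries and stood at 250.83, 67.62 and 125.19 FPKM in the 27 °C libraries and 41.58, 4.52 and 67.39 FPKM in the 32 °C libraries. The next was listed at 0 in all 22 °C libraries and stood at 123.8, 82.55 and 61.47 FPKM in the 27 °C libraries and 58.02, 20.57 and 40.85 FPKM in the 32 °C libraries. The last, also at 0 throughout 22 °C, stood at 5.34, 6.05 and 4.78 FPKM in the 27 °C libraries and 2.58, 2.38 and 1.31 FPKM in the 32 °C libraries. Their limma adjusted p values were 0.0484, 0.00194 and 0.0149. The 22 and 32 °C values had been used to choose the members, so these calls and p values are a description. In all 3 the 32 °C libraries lay between the other groups, which the conditions fix for a member at 0 throughout 22 °C and above 0 at 32 °C. Without replicate 1 or replicate 2 at 22 °C a single member was called. The lowest difference of any member was -2.49, in an isoform at 28.08, 10.02 and 13.51 FPKM in the 22 °C libraries, 35.29, 38.29 and 35.33 FPKM in the 27 °C libraries, and 0, 0 and 25.31 FPKM in the 32 °C libraries.

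Over the steps on which they were chosen, 56 members were called higher at 27 than at 22 °C, where the test called 0.271% of all isoforms higher. The fall from 27 to 32 °C was called in 23 members, against 0.0475% of all isoforms. Since the same values chose the members, nothing is read from these counts. All 23 were also called over the lower step, and 144 members were called over neither. Of the 23, 16 were at 0 in all 6 other libraries, and in the 23 no value outside 27 °C exceeded 2.48 FPKM. Their mean at 27 °C ran from 2.44 to 19.9 FPKM, so that none of the 10 most abundant members was called at both steps. In the 16 at 0 elsewhere, only the 27 °C libraries showed any spread. The 56 became 15, 17 and 32 when replicate 1, 2 or 3 at 22 °C was left out, and 5, 6 and 3 when replicate 1, 2 or 3 at 27 °C was. The 23 became 15 without replicate 3 at 32 °C and 2 or fewer without any of the 27 °C libraries. Leaving out a 27 °C library also removes isoforms below 1 FPKM throughout 22 and 32 °C, since only 2 libraries then reach 1 FPKM. In each case 158 members were still tested. With the minimum set at 2 libraries, an alternative added after seeing the data, the counts were 34, 34 and 29 at the lower step and 28, 20 and 18 at the upper.

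A 27 °C library that took no part in the choice gives the same measure afresh. Each 27 °C library was left out in turn, the conditions were applied to the other 8 libraries, the first 200 isoforms were kept, and the missing library was then read. Replicate 1 lay above all 6 values of the other temperatures in 69 of its 200 isoforms (34.5%), against 16.3% of all isoforms tested. Replicate 2 did so in 70 (35.0%, against 13.9%) and replicate 3 in 80 (40.0%, against 13.1%). The share was above the background for each library, and most of the chosen isoforms did not hold their place. The 6 values to be cleared had themselves helped to choose the isoforms, for being low, which by itself raises the share above the background, so no test is given.

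Many of the chosen isoforms were undetected in the library left out. The median elevation above the mid-level of 22 and 32 °C was 2.90, 2.84 and 2.84 in the libraries used to choose. In the left-out library it was 0.84, 1.0 and 1.13, against 0.03, 0.03 and 0.00 over all isoforms tested. The left-out library was listed at 0 for 62, 60 and 61 of the 200 isoforms, against 8.71, 8.19 and 7.94% of all isoforms tested. It was at least 1 above both other group means for 79, 85 and 92 of them (4.13, 4.01 and 3.56% of all isoforms). The elevation and this count rest on 22 and 32 °C values that helped to choose the isoforms for being low. That by itself raises both above the background, so they are a description. With the minimum set at 2 of 8 libraries, 62, 71 and 61 isoforms kept their place, where 15.9, 13.7 and 12.8% of all isoforms lay above the 6 values, and 89, 82 and 94 were at 0.

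**Figure D4:**
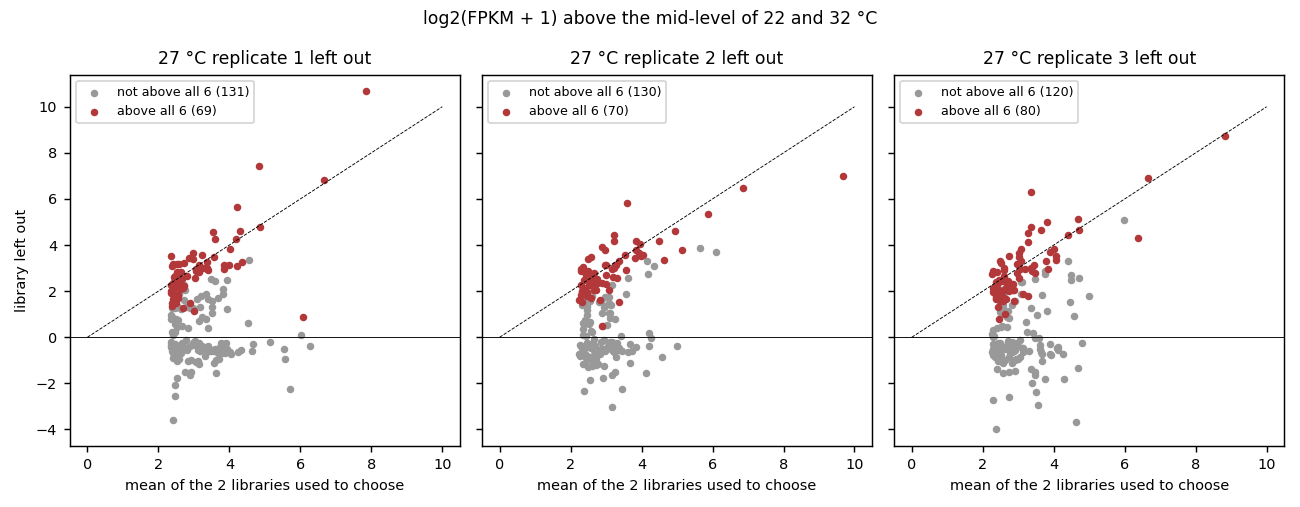
Elevation of log2(FPKM + 1) above the midpoint of the 22 and 32 °C means for the 200 isoforms chosen without the library named in each panel: the mean of both 27 °C libraries that chose them (horizontal) against the library left out (vertical). Red points, 69, 70 and 80 in the panels, lie above all 6 other values and scatter around the dashed line of equal elevation, while many grey points lie at or just below 0.

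Isoforms set apart at 27 °C were as frequent in one direction as in the other. The same conditions turned around, with 27 °C lowest, were met by 489 isoforms, against 487 with 27 °C highest. With 22 °C set apart, 1410 isoforms were highest and 1225 lowest, and with 32 °C set apart 732 were highest and 458 lowest. The median summed difference was 3.23 over the 487 isoforms highest at 27 °C, against 3.49 over the 1410 highest at 22 °C and 3.32 over the 732 highest at 32 °C. Among these, the largest single sum was 17.6 at 27 °C, against 14.6 at 22 °C and 11.4 at 32 °C. Among isoforms lowest at 22, 27 or 32 °C, the median sums were 3.02, 3.47 and 3.3, and the largest were 19.24, 17.47 and 19.19. Over the first 200 isoforms in each case, the median sum was 4.42 with 27 °C highest and 4.65 to 6.62 in the other cases. These counts and sizes share all 9 libraries and were not tested against each other. The 487 became 919, 963 and 949 when replicate 1, 2 or 3 at 27 °C was left out, since fewer values then had to clear the others.

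**Figure D5:**
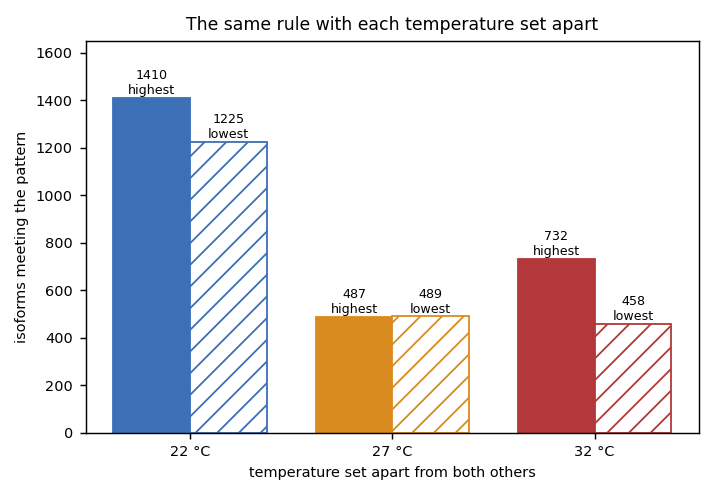
Number of isoforms (vertical axis) meeting the same conditions when 22, 27 or 32 °C is the temperature set apart from both others, as the highest (filled bars) or the lowest (hatched bars). At 27 °C the bars stand at 487 and 489, and at 22 °C at 1410 and 1225.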

How the data were processed

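Per the labels' protocols, the 9 eyestalk libraries were sequenced on a DNBSEQ instrument. The authors deposited FPKM values, 1 column per library, per the file headers. Bowtie2 and RSEM are named per the submitters' processing notes, with the settings, transcript set and genome build not given in the sources used here. RSEM shares ambiguous reads between similar isoforms, so an isoform can gain or lose reads to another. Read depth is unknown, so no counting interval is given. The FPKM of a library summed to between 1704917 and 2227273. The table held 0 unused columns, and 0 identifiers matched the gene table of assembly ASM2467909v1.

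Groups and replicate numbers came from the library titles. Isoforms with at least 1 FPKM in 3 libraries were fitted on log2(FPKM + 1) with limma 3.58.1 (R 4.3.3), all 9 libraries together with trended variance, two-sided, and p-values were adjusted over all 101114 isoforms. Members were selected with pandas 2.3.3 in Python 3.11.15. The fit was tested on simulated data. Members, classes and comparisons were chosen with earlier results of these data known. Identifiers are given for 4 members, the 2 of highest mean at 27 °C and the next 2 by summed rise and fall. Other members described singly are given by rank and were picked after their values were seen. No gene list could be filled and no sequence is shown. Alternatives covered the pseudocount, the minimum, TPM and median-of-ratios scaling, a replicate block and each library left out.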

Additional observations from a re-analysis of the deposited data

How the results depend on the processing

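Of 105 recomputed values, 70 stayed within 1.5 times the reported count or within the spread of the libraries, and 35 moved further. Nearly all are counts, which cannot change sign. The median difference of 32 against 22 °C could, and was 0.07 to 0.27 over the members still tested under the other pseudocount, minimums and scalings. The 56 members called at the lower step became 27 when the pseudocount was 0.1, 35 with every isoform above 0 tested and 20 with a minimum of 5 FPKM, and ranged from 3 to 59 with a library left out. The 23 called at the upper step became 8 with a pseudocount of 0.1 and 1 with a minimum of 5 FPKM, which left 119 members tested. They ranged from 0 to 23 with a library left out. Where limma called 0, with replicate 2 or 3 at 27 °C left out, 116 and 119 of the 158 members tested passed an unadjusted p of 0.05, against 3.74 and 3.68% of all isoforms. The members had been chosen for this fall, so nothing is read from these counts either. With the minimum of 1 FPKM in 2 libraries and replicate 1, 2 or 3 at 27 °C left out, the lower step gave 34, 34 and 29. The upper step then gave 28, 20 and 18. The count of 3 members called for 32 against 22 °C, in either direction, ranged from 1 to 3 with a library left out and was 4 with a pseudocount of 0.1. Without replicate 3 at 32 °C, 2 members were called higher at 32 °C and 1 lower. With the replicate block, limma called 15, 3 and 1 members in these comparisons. The labels do not tie replicate numbers to shared tanks or days, same-numbered libraries deviated together at correlations of -0.019 to 0.0525, and 7 of 18 matches found their own number, so the pairing was not used. The 487 isoforms meeting the conditions became 822 with a pseudocount of 0.1, 205 with a minimum of 5 FPKM and 266 after rescaling to TPM, and ranged from 532 to 963 with a library left out. Of the 200 members, 119 stayed among the first 200 with a minimum of 5 FPKM, and 68 to 165 with a library left out. Under all 5 other settings of pseudocount, minimum and scaling, 98 members met the conditions. Unknown read depth limits what can be said of values near 1 FPKM.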
